A study of Homo sapiens with 2 samples.

Results

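Chromatin immunoprecipitation with an antibody against APC placed 44771 peaks on the hg19 genome of HCT-116 cells, and 4108 of them (9.18%, 95% Wilson interval 8.91 to 9.45) are described here. These are the peaks whose centre the authors' annotation puts in the second or a later intron of a transcript and in no annotated repeat or CpG island. They were taken by their annotation text alone, as rows whose detailed annotation begins with intron and whose intron number is 2 or more. They are 20.1% of the 20403 peaks with an intron annotation (interval 19.6 to 20.7). The other later-intron peaks, 9477 in number, carry a repeat or CpG island label, and 2363 peaks outside repeats lie in first introns. HCT-116 is an established colon carcinoma line with wild-type APC and a β-catenin allele, CTNNB1{delta}Ser45, that lacks a serine needed for its degradation. The cells were crosslinked with 1% formaldehyde 24 h after seeding. The study made 1 APC ChIP library, with a polyclonal antibody raised to the last 50 amino acids of APC, and 1 library of input chromatin that had been pre-cleared with rabbit IgG, both from chromatin cut by sonication and micrococcal nuclease. No peak list from a control antibody was used here. There is 1 library of each kind, so no difference was tested, and the intervals cover counting error over peaks of this library only. The list gives no read counts, so the depth behind a peak is unknown.

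APC is a large scaffold protein that holds β-catenin in a complex for destruction and so restrains WNT signalling, in which β-catenin joins TCF/LEF factors on DNA. APC also binds microtubules and the cell cortex, and part of it is found in the nucleus. Introns after the first lie inside the body of a gene, where enhancers, internal start sites and nested small RNA genes are common, and the gene whose intron holds such an element need not be the gene it acts on.

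Of the 4108 peaks, 108 (2.63%, interval 2.18 to 3.16) were long enough to reach the transcription start site (TSS) of the gene named for them. The share was 18.8% of all peaks, 23.7% of first-intron and 2.05% of intergenic peaks outside repeats. It was 0.93% of later-intron peaks with a repeat or CpG island label. Among the 108, 25 named a gene other than the one whose intron held the centre. Sequences of 3 such starts are shown because they are the sites where a peak counted as intronic lies over the start of another gene. The sequences are RefSeq's, from 250 bases before to 50 bases after the gene start on GRCh38.p14, since no hg19 sequence was used. Capitals mark the AP-1 motif TGANTCA and the E-box CACGTG. UCN2, the urocortin 2 peptide hormone gene (chr3:48563732-48564031, minus strand), lies under the 3848-bp peak in intron 116 of the collagen gene COL7A1. DLGAP1-AS2, an antisense RNA gene (chr18:3603487-3603786, plus strand), lies under a 3598-bp peak in intron 4 of the synaptic scaffold gene DLGAP1. RPS28, a ribosomal protein gene (chr19:8321246-8321545, plus strand), lies under a 6736-bp peak in the last intron of KANK3.
UCN2: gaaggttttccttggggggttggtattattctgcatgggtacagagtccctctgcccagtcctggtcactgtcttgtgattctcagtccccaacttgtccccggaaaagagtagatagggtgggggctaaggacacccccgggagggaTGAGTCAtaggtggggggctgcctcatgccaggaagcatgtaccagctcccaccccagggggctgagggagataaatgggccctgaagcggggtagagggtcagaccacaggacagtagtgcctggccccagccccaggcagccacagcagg
DLGAP1-AS2: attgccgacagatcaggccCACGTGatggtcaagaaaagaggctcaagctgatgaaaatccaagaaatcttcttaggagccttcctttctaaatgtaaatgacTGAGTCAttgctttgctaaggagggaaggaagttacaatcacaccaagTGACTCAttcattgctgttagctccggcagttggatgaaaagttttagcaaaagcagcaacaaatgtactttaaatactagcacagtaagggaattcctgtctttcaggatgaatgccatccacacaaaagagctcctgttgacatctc
RPS28: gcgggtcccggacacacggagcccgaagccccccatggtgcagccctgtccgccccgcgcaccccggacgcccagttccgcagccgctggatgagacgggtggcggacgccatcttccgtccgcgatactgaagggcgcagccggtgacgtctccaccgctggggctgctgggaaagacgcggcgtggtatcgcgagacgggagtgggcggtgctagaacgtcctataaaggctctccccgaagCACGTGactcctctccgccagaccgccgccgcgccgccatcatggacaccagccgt

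UCN2 had 1 AP-1 match, beginning 102 bases before the gene start, and DLGAP1-AS2 had 2, beginning 147 and 99 bases before it. The E-box matches began 231 bases before the start of DLGAP1-AS2 and 6 bases before that of RPS28. These 3 genes were chosen after their matches were seen. Of the 24 other genes with a reached TSS, 14 were in the promoter table, with 17 promoters, and on either strand 3 of the 17 held TGANTCA, 3 held CACGTG and 0 held the TCF/LEF core CTTTGA. A count of 0 in 17 has an upper Wilson bound of 18.4%. The shares among all 35116 promoters of that table were 7.71% for TGANTCA, 7.26% for CACGTG and 12.9% for CTTTGA. The 129 promoters of the 76 matched genes with a reached TSS, host genes included, held them at 6.98%, 9.30% and 7.75%. Each promoter listed for a gene was counted, so the 17 and the 129 can include starts that no peak reached. A match is a description of these letters and not a binding site.

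Peaks also reached the starts of intronic microRNA genes. MIR330 lay under a 5774-bp peak in intron 6 of EML2, a microtubule-binding protein gene, and MIR589 under a 3320-bp peak in intron 3 of FBXL18. Peaks of 17585 and 10664 bp in WASH7P and WASH3P, near-identical subtelomeric copies of a pseudogene, both named MIR6859-1, so reads there can be split or shared among copies. The mature sequences of MIR330 and MIR589 are given with their seeds, bases 2 to 8, in capitals, to show which small RNAs lie under such peaks. No 2 of the 4 shared a seed.
hsa-miR-330-5p: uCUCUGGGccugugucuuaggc
hsa-miR-330-3p: gCAAAGCAcacggccugcagaga
hsa-miR-589-5p: uGAGAACCacgucugcucugag
hsa-miR-589-3p: uCAGAACAaaugccgguucccaga

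Early introns held most of the 4108 peaks. Intron 2 held 985 (24.0%, interval 22.7 to 25.3), intron 3 held 619 (15.1%), intron 4 held 411 (10.0%) and intron 5 held 295 (7.18%). Introns 6 to 10 held 912, introns 11 to 20 held 631, and introns 21 or later held 255 (6.21%, interval 5.51 to 6.99). All later-intron peaks, with or without a repeat or CpG island label, numbered 13585. Of these, intron 2 held 3134, intron 3 held 1984 and introns 21 or later held 905. Each transcript with a later intron has an intron 2 and fewer reach high numbers, so part of this fall is fixed in advance. The median intron number was 5, in transcripts with a median of 13 introns. The last intron of the transcript held 13.3% of the peaks (interval 12.3 to 14.3), against 11.1% (interval 10.5 to 11.8) of later-intron peaks with a repeat or CpG island label. Intron numbers depend on the transcript that the annotation chose, and 13.4% of the peaks were numbered on a non-coding transcript.

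Position along the gene had overlapping intervals for peaks outside and inside repeats at both ends. In transcripts with 6 or more introns, the introns after the first were placed in 5 parts by relative intron number. Introns are whole, so the parts of a transcript can hold unequal numbers of them. The earliest part held 34.7% of the 3415 peaks outside repeats (interval 33.1 to 36.3) and 33.6% of the 8147 labelled ones (interval 32.6 to 34.7). The latest part held 16.0% (interval 14.8 to 17.3) and 15.2% (interval 14.4 to 16.0). Intron lengths were not used, so a share by intron number is no density per base. Among all peaks in an intron of a given number, the share outside repeats and CpG islands was 31.4% in intron 2 (interval 29.8 to 33.1) and 28.2% in introns 21 or later (interval 25.3 to 31.2), against 34.7% in intron 1 (interval 33.5 to 35.8).

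The peaks were shorter than first-intron peaks and longer than labelled later-intron peaks, by medians whose intervals did not overlap. Their median was 1437.5 bp (95% order-statistic interval 1406 to 1468), with quartiles of 1006 and 2174 bp and a range of 372 to 21127 bp. The deposited score equals the peak length, so it says nothing about signal height. First-intron peaks outside repeats had a median of 1723 bp (interval 1669 to 1780), intergenic peaks outside repeats 1543 bp (interval 1507 to 1575), later-intron peaks with a repeat or CpG island label 940 bp (interval 926 to 954), and all peaks of the series 1350 bp. Within the later introns the median was 1537 bp in intron 2 (interval 1474 to 1623) and 1343 bp in introns 21 or later (interval 1209 to 1449). Peaks of 5 kb or more made up 3.14% (129 peaks), near the 3.08% of all peaks of the series. The shares were 6.05% of first-intron, 4.50% of intergenic and 1.37% of labelled later-intron peaks.

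**Figure D1:**
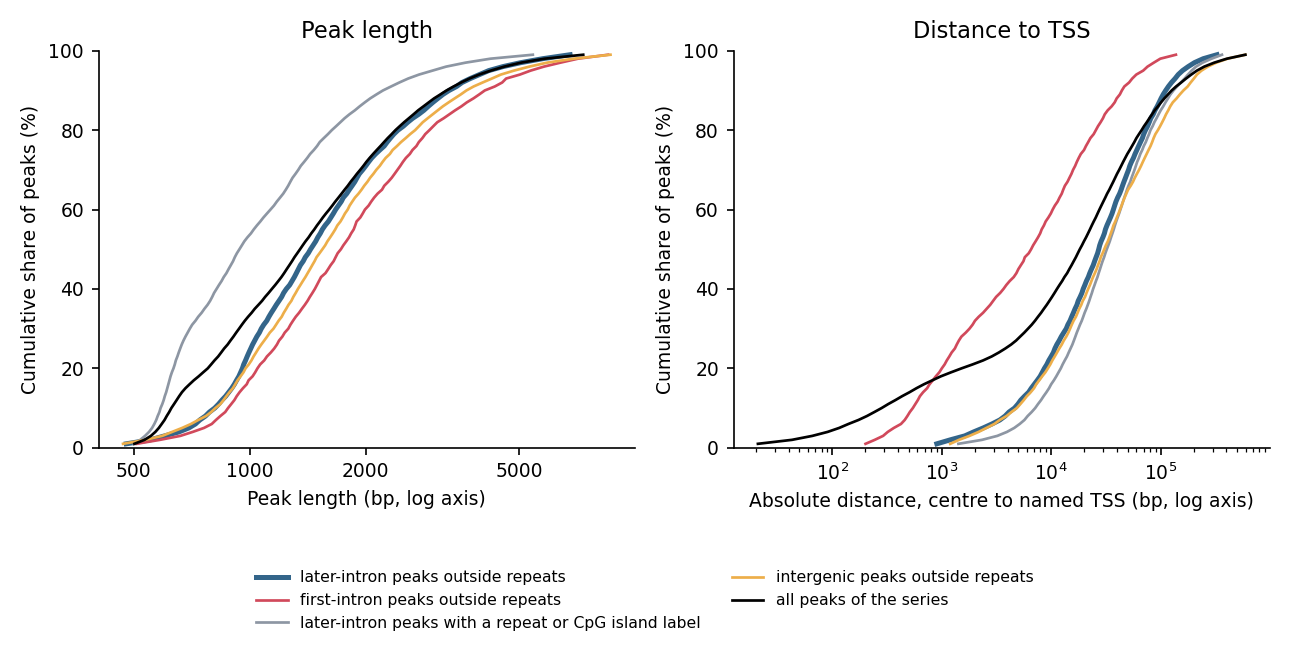
Cumulative share of peaks (%) by peak length and by absolute distance from the peak centre to the TSS of the named gene, both on log axes in bp, for later-intron peaks outside repeats (thick line) and 4 other sets. The thick line lies left of the first-intron line for length (medians 1437.5 and 1723 bp) and right of it for distance (27238 and 6569 bp).

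Most of the peaks lay far from a start site. The median distance from peak centre to the named TSS was 27238 bp (quartiles 10836 and 60730 bp), against 6569 bp for first-intron, 32269 bp for labelled later-intron and 30602 bp for intergenic peaks. Within 10 kb lay 944 peaks (22.98%, interval 21.7 to 24.3), against 59.0% of first-intron, 15.9% of labelled later-intron and 21.3% of intergenic peaks. Within 1 kb lay 57 peaks (1.39%). Beyond 100 kb lay 502 (12.2%), the farthest being a 409-bp peak in intron 86 of LRP1B, 1360588 bp from the TSS of the pseudogene YY1P2. In the later introns 72.5% of peaks were downstream of the named TSS (interval 71.2 to 73.9), against 88.9% in first introns and 37.9% between genes.

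The gene named for a peak was often not the gene that holds it. The annotated transcript gives the host gene, and for 3861 of the 4108 peaks (94.0%) both host and named gene were matched to a current RefSeq symbol. The 2 were the same gene for 2238 (58.0%, interval 56.4 to 59.5), against 90.0% of first-intron peaks (interval 88.6 to 91.1) and 63.1% of labelled later-intron peaks (interval 62.1 to 64.1). Readthrough and overlapping transcripts count here as different genes. The share was 78.6% in intron 2 (interval 75.8 to 81.1), 61.6% in intron 5, 30.4% in introns 11 to 20 and 21.2% in introns 21 or later (interval 16.6 to 26.7). The named TSS was read here as the one nearest to the peak centre. A centre farther along its host can then lie nearer to the start of another gene, so the naming rule fixes part of this fall.

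**Figure D2:**
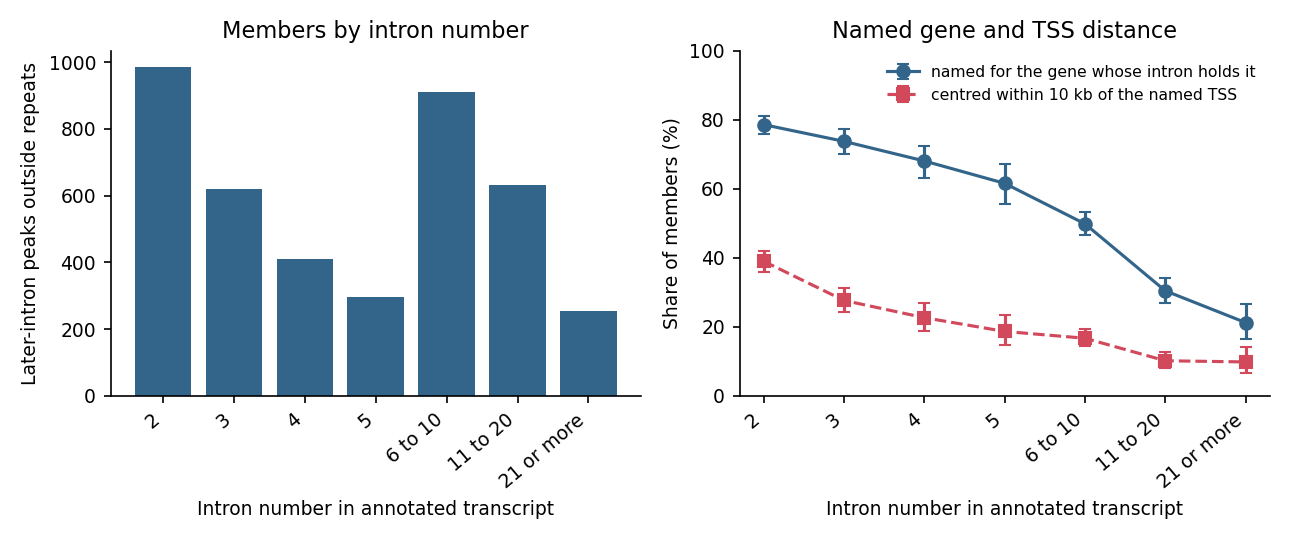
Left, number of later-intron peaks outside repeats by intron number of the annotated transcript. Right, share of these peaks (%) named for their host gene (circles) and centred within 10 kb of the named TSS (squares), with 95% Wilson intervals, falling between intron 2 (78.6% and 39.0%) and introns 21 or later (21.2% and 9.80%). The named TSS was read as the one nearest to the peak centre, which fixes part of the fall.

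Of the 1623 peaks named for another gene, 55.9% were centred upstream of the named TSS (interval 53.5 to 58.3). For the 2238 named for their host the share was 5.94% (133 peaks), which the split largely fixes, since an intron lies downstream of the start of its own transcript. Non-coding genes or pseudogenes were the named gene of 39.5% of the 1623 and of 6.75% of the 2238. Median lengths were 1462 bp (interval 1410 to 1509) and 1425 bp (interval 1383 to 1466), and these intervals overlap. Small RNA genes were named often: 292 of the 4108 peaks (7.11%, interval 6.36 to 7.93) named a microRNA gene, against 2.96% of first-intron, 4.91% of labelled later-intron and 5.11% of intergenic peaks. MIR100 was named for 6 peaks, all in its host transcript gene MIR100HG, and MIR4714 for 6 peaks, all in IGF1R.

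Of the 10 longest peaks, 7 reached the TSS of the gene named for them. The longest, 21127 bp (chromosome 17, 73687406 to 73708531), was named for ITGB4, the hemidesmosome integrin, but was centred in intron 5 of SAP30BP at a signed distance of -19548 bp from the ITGB4 TSS, where minus is upstream. A peak of 20232 bp (chromosome 17, 73983571 to 74003801) had its centre in the last intron of TEN1, a telomere-capping gene, and reached the TSS of CDK3. A 19714-bp peak (chromosome 16, 88863402 to 88883114) in intron 7 of CDT1, the replication licensing factor, reached the CDT1 TSS 3072 bp away and so was not confined to the intron. A 14476-bp peak (chromosome 17, 80053864 to 80068338) centred in the last intron of CCDC57 reached the TSS of FASN, the fatty acid synthase gene. A 13090-bp peak in LRRC75A named SNORD65, an 11415-bp peak lay in LINC00324, an 11324-bp peak in LOC100130987 reached the TSS of POLD4, a DNA polymerase δ subunit, and a 10974-bp peak reached the start of ATP5F1D, a subunit of ATP synthase. The 17585-bp peak in WASH7P and a 13209-bp peak in the pseudogene TEKT4P2 (chromosome 21) complete the 10 longest. Chromosome 17 held 5 of the 10.

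A few peaks lay almost on a TSS although their intron was not the first. The nearest centres were those at STAG2, a cohesin subunit (191 bp, intron 2 of 33, 1120 bp long), GSTO2 (286 bp, intron 3 of 6), VGLL4, a TEAD cofactor (328 bp, intron 4 of 6, 2305 bp long), HAUS7 (337 bp, intron 2 of 12) and the pseudogene MSTO2P (388 bp, centred in MSTO1, its near-identical source gene, so the place of this peak is uncertain). The first 4 named their own host. Of the 108 peaks that reached a TSS, 80 named the host itself, so each spans a start of the gene in whose later intron it is centred. At the other end of the gene, the highest intron numbers were 116 of 117 in COL7A1 (3848 bp, reaching UCN2), 86 of 90 in LRP1B (409 bp), 83 of 115 in SYNE2, a nuclear envelope spectrin-repeat gene (883 bp), 82 of 83 in NM_001373, whose host was not matched (1171 bp, named for LBR), and 75 of 80 in the dynein gene DNAH17 (1286 bp, named for PGS1).

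Most host genes held 1 peak. The 4031 peaks with a matched host fell in 2788 genes, of which 2113 (75.8%) held 1, 424 held 2, 251 (9.0%) held 3 or more and 74 held 5 or more. LINC-PINT, a p53-regulated long non-coding RNA gene, held 17 within 131 kb of chromosome 7, all in introns 2 to 4 and 490 to 8582 bp long, of which 9 named LINC-PINT, 7 named LOC100506860 and 1 named MIR29B1. TRAPPC9, a vesicle-tethering subunit, held 15 over 708 kb, of which 9 named KCNK9. SH3PXD2A, an invadopodium scaffold gene, held 10, and each of them named the antisense gene SH3PXD2A-AS1. RPTOR, the mTORC1 subunit, also held 10 and was named for 0 of them, the names being LOC101928855 and CHMP6. CUX1, a homeobox factor, and RAD51B, a recombination gene, held 10 each, with 5 of each set named for the host. TTC7A held 9, with 0 named for it, TCF7L2 held 9, all named for it, and MTHFD1L, a mitochondrial folate enzyme, and TIAM1, a RAC exchange factor, held 9 with 5 each named for them.

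**Figure D3:**
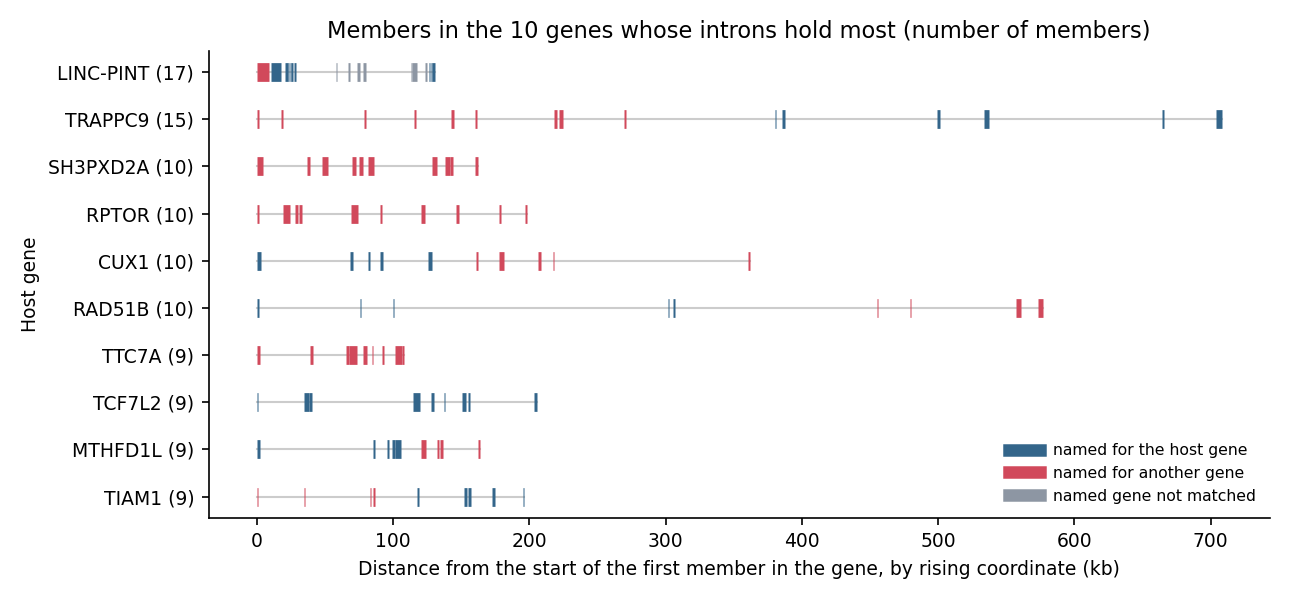
Later-intron peaks outside repeats in the 10 genes that hold most of them, drawn to scale against distance (kb) from the first such peak of the gene, in blue where named for the host gene, red where named for another gene and grey where the named gene was not matched. Peaks of SH3PXD2A, RPTOR and TTC7A all name other genes, and those of TCF7L2 all name TCF7L2.

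Single introns could hold several peaks. Introns were counted by transcript and intron number, over the 4031 peaks with a matched host. An intron numbered on different transcripts could count more than once. Of 3567 such introns with a peak, 309 held 2 or more and 99 held 3 or more. Intron 3 of the readthrough gene LINC02210-CRHR1 held 8, intron 2 of a LINC-PINT transcript 7 within 28.9 kb, intron 2 of BCL2L1, the BCL-XL survival gene, 7 within 56.0 kb, and intron 2 of IGF1R 6 within 139.9 kb. Intron 67 of VPS13D held 5 within 18.0 kb, all named for SNORA59A, although their centres lay at -37023 to -20787 bp from its TSS. Over the whole list, another peak of any kind lay within 10 kb of 54.2% of the later-intron peaks (interval 52.6 to 55.7), against 61.1% of first-intron, 47.1% of labelled later-intron and 51.3% of intergenic peaks.

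Genes of the WNT pathway were among the hosts. TCF7L2, which encodes a DNA-binding partner of β-catenin, held peaks of 884 bp in intron 3, 3497, 2639, 5586 and 2614 bp in intron 4, 716, 3148 and 1296 bp in intron 5 and 2491 bp in intron 12, by the numbering of 4 transcripts. The longest (chromosome 10, 114830714 to 114836298) lay 123497 bp from the named TSS. AXIN2, the feedback scaffold of the destruction complex, held 1 peak of 3495 bp in intron 2, 100 bp from the next peak of the list. AXIN1 held 1 of 1321 bp and LRP5, a WNT co-receptor, 1 of 3035 bp, each in intron 2. RNF43, a ligase that removes WNT receptors, held 4, the longest 3188 bp, and its relative ZNRF3 held 1 of 2767 bp. TCF7L1, a repressive TCF, held 2 in intron 4 (1893 and 984 bp), both named for TGOLN2. In all, 12 of 48 WNT pathway genes held a peak (25.0%, interval 14.9 to 38.8). A promoter peak was present for 5 of the 12 and for 17 of all 48. Of 33 WNT targets 8 held a later-intron peak (24.2%, interval 12.8 to 41.0). They include EPHB2 with 3130 bp and CCND1, the cyclin D1 gene, with 2387 bp in its last intron. AXIN2, RNF43 and ZNRF3 are on both lists, and each held a later-intron peak. Among all 20052 protein-coding genes of the RefSeq table, 2549 held one (12.7%, interval 12.3 to 13.2). Longer genes with more introns offer more room, and their part in these shares was not tested.

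Of 25 genes given whatever their values, 10 held a peak and 12 held or were named for one. Besides those above, TEAD1, a YAP partner, held 6 of 1230 to 3241 bp, 5 of them named for it. MET, a receptor tyrosine kinase, held 1 of 1651 bp in intron 15, EGFR 1 of 1184 bp in intron 3 and IQGAP1, a cortical scaffold that binds APC, 2 of 1020 and 566 bp in intron 2. ITGB4 and KLF5 were named only for peaks in SAP30BP and in PIBF1 (1306 bp, at -75514 bp from the KLF5 TSS). The other 13 neither held nor named one: APC, GSK3B, CTNNB1, LRP6, BCL9L, CD44, SMAD3, PLEC, YAP1, HNF4A, DLG1, MAPRE1 and VEGFA.

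The other lists are read against the 12.7% of all protein-coding genes that held a peak, a difference that was not tested. Of 33 genes listed as APC partners at microtubules and the cytoskeleton, 18 held a peak (54.5%, interval 38.0 to 70.2), among them SEPTIN9 (4933 bp), the myosin MYH9 (4695 bp) and DLG4 (3083 bp). These peaks sat in transcripts with a median of 40 introns, against 13 over all 4108. Of the 33 genes 8 (24.2%) were named for a later-intron peak outside repeats. The share of all protein-coding genes named for such a peak was not computed. Of 43 chromatin regulators 20 held a peak (46.5%, interval 32.5 to 61.1), in transcripts with a median of 26 introns. Among them were the deacetylase genes HDAC4 (4538 bp, 6 peaks) and HDAC5 (4188 bp, 3 peaks). YAP and TEAD pathway genes stood at 9 of 29 (31.0%, interval 17.3 to 49.2), led by WWTR1 (4335 bp), which encodes TAZ, AMOTL2 (3640 bp) and TEAD1. Receptor tyrosine kinase and MAPK genes stood at 9 of 35 (25.7%), led by EPHA2 (5945 bp), INSR (3410 bp) and FGFR2 (3236 bp), and adhesion genes at 9 of 38 (23.7%), led by LAMA5 (3167 bp), TJP1 (2713 bp) and ITGB5 (1909 bp). TGF-beta and SMAD genes stood at 6 of 28 (21.4%, interval 10.2 to 39.5), led by SMAD6 (3614 bp), TGFB1 (1659 bp) and SMURF2 (1309 bp). AP-1 and ATF genes stood at 3 of 28 (10.7%, interval 3.71 to 27.2), namely FOSL2 (2666 bp), CREB5 (1014 bp) and ATF6 (944 bp). The intervals of the TGF-beta and AP-1 lists held 12.7%.

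Among lists of tissue and cell type markers, the intestinal, muscle and fibroblast, immune and liver lists had intervals that held the 12.7% of all protein-coding genes, and the neuronal list lay above it. Of 33 intestinal genes 2 held a peak (6.06%, interval 1.68 to 19.6), among them EHF (2194 bp, 3 peaks). A promoter peak was present for 3 of the 33 intestinal, 4 of 30 neuronal and 1 of 30 muscle and fibroblast genes. The immune and liver lists had 5 of 30 and 0 of 30, against 25.2% of all protein-coding genes. Neuronal markers stood at 12 of 30 (40.0%, interval 24.6 to 57.7), led by DLGAP1 (7284 bp), MAPT, the tau gene (4438 bp), and the calcium channel gene CACNA1A (3768 bp). These 3 peaks were named for other genes, DLGAP1-AS2, STH and IER2. The part of gene length in this share was not tested. Of the 30 neuronal genes 6 (20.0%) were named for a later-intron peak outside repeats, and the share of all protein-coding genes so named was not computed. Muscle and fibroblast markers stood at 5 of 30 (16.7%, interval 7.34 to 33.6), led by MYL2 (2212 bp), PDGFRB (1812 bp) and COL5A1 (1191 bp), immune markers at 5 of 30 with the same interval, among them ITGAL (1850 bp) and PAX5 (1743 bp), and liver markers at 4 of 30 (13.3%, interval 5.31 to 29.7), led by ABCC2 (2782 bp), ASGR2 (1426 bp) and F2 (1405 bp).

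**Figure D4:**
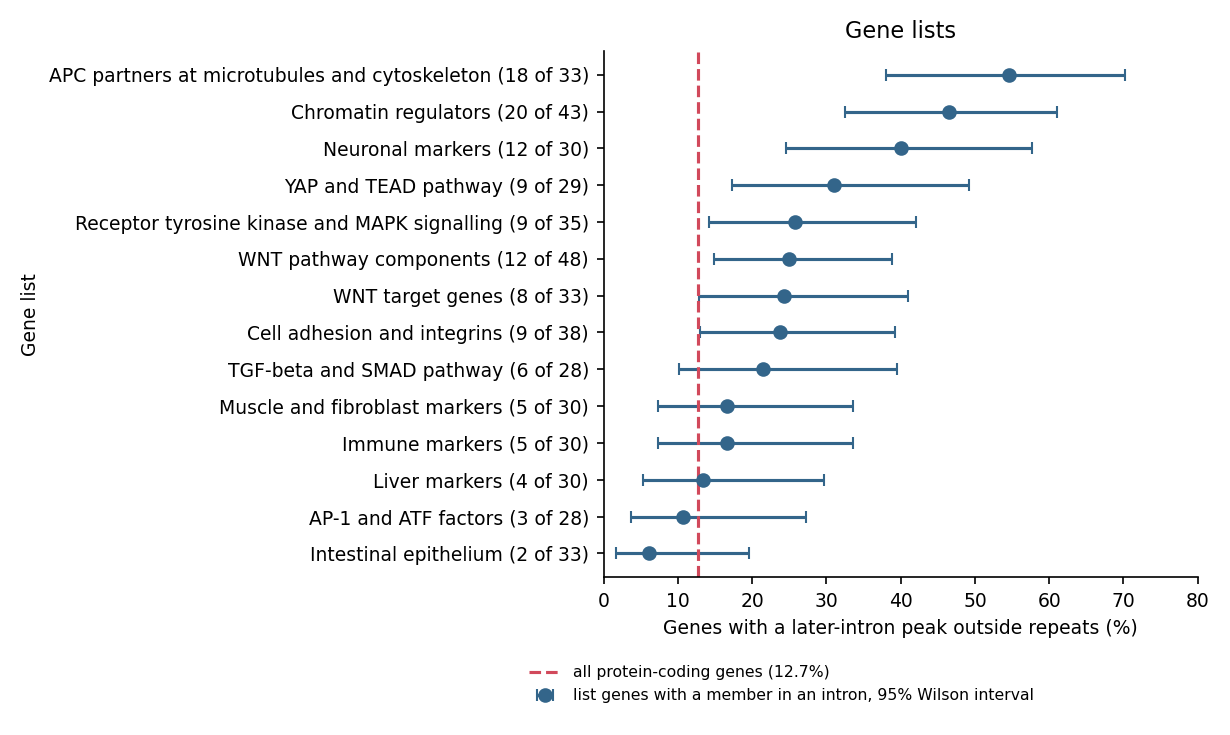
Share of the genes of 14 lists (%) that hold at least 1 later-intron peak outside repeats, with 95% Wilson intervals and counts beside the list names. The dashed line is the share of all protein-coding genes, 12.7%, and the intestinal list (6.06%) lies at the low end and the APC partner list (54.5%) at the high end.

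Among the 2549 protein-coding hosts, 833 (32.7%, interval 30.9 to 34.5) also had a peak labelled promoter, against 25.2% (interval 24.6 to 25.8) of all 20052 protein-coding genes. Of the 14429 protein-coding genes with any peak in or named for them, a set that holds each gene with a promoter peak by definition, the share was 35.0% (interval 34.2 to 35.8). The share was 31.6% with 1 later-intron peak (interval 29.6 to 33.7), 34.9% with 2 (interval 30.3 to 39.7) and 37.8% with 3 or more (interval 31.8 to 44.2), and these intervals overlap. Protein-coding genes with a first-intron peak outside repeats had a promoter peak in 24.4% of cases (interval 22.4 to 26.5). For those with a later-intron peak that carries a repeat or CpG island label, the share was 35.2% (interval 33.8 to 36.6). Each peak carries 1 label, so a peak over a start counts as promoter or as intron and not as both. Of all 2788 hosts, 467 (16.8%) also held a first-intron peak outside repeats.

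The chromosomes differed in their share of these peaks. On chromosome 17 they were 383 of 2708 peaks (14.1%, interval 12.9 to 15.5), against 9.18% over the genome, and on chromosome 4 they were 152 of 2320 (6.55%, interval 5.61 to 7.63). Chromosome 14 had the lowest share of the autosomes, 6.41% (interval 5.24 to 7.84). Chromosome X had 18 of 569 (3.16%, interval 2.01 to 4.94), and chromosome Y had 0 of 16, with an upper Wilson bound of 19.4%. Their median length was 2108 bp on chromosome 17 and 2008 bp on chromosome 19, against 1033 bp on chromosome 4. All peaks of chromosome 17 had a median of 2114 bp, and intergenic peaks outside repeats there a median of 2551 bp. Copy number, gene density and intron content of the chromosomes were not tested.

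**Figure D5:**
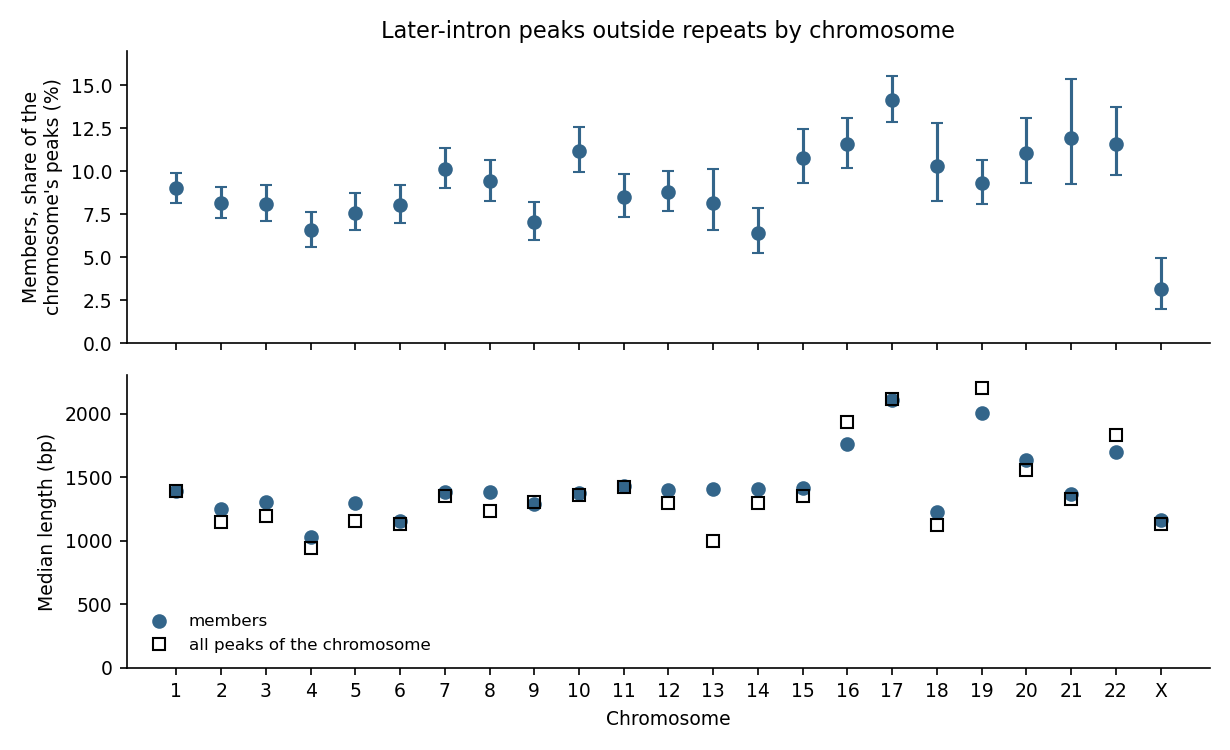
Top, later-intron peaks outside repeats as a share of each chromosome's peaks (%), with 95% Wilson intervals. Bottom, their median length (bp, circles) beside that of all peaks of the chromosome (squares). Chromosome 17 has the highest share (14.1%) and X the lowest (3.16%) of the 23 chromosomes with such a peak.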

How the data were processed

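The authors deposited 1 table of annotated peaks from the APC ChIP library. The input library was not analysed here. The submitters' processing notes name MACS2 and the hg19 build. For the aligner, the peak threshold, the role of the input and the annotator, the sources used here give nothing. In each of the 44771 deposited rows the score is the end coordinate, less the start, with 2 bp added, and was read as a length.

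Rows were selected by annotation text. Host genes came from the accession of the annotated transcript (98.1% matched) and named genes from current or older symbols (95.6% matched), both through a RefSeq gene table (GRCh38.p14) from which no coordinates were taken. A peak reached a TSS if the distance from its centre was at most its length divided by 2. Among neighbouring peaks that name the same gene, 93.3% of 27491 pairs had distances that differed by the gap between centres, within 2 bp.

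Shares have 95% Wilson intervals and medians have order-statistic intervals, both checked on simulated data. With 1 library no test was made. Named were the genes of the 10 longest peaks, the 10 hosts with most peaks, the 5 highest intron numbers, the 5 centres nearest a TSS, up to 3 genes per list by longest peak, and 25 fixed genes. Some genes that this rule picks are not reported here. Genes named beyond these were chosen after their values were seen. The members and lists were chosen with earlier results of these data known. Alternatives were a stricter list, merged peaks, another intron minimum, repeats included and other distances. Python 3.11.15, numpy 2.4.6, pandas 2.3.3, scipy 1.17.1 and matplotlib 3.10.9 were used.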

Additional observations from a re-analysis of the deposited data

How the results depend on the processing

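Of 27 alternative values, 10 stayed within the interval of the reported value and 17 moved outside it. Other distance cutoffs, another intron minimum and added labels change the quantity itself, so this tally is no measure of robustness. With only the 22386 peaks of at least 1350 bp, the share of all peaks was 9.96%, the median length 2068 bp, the share within 10 kb of a TSS 29.1%, the last-intron share 14.4% and the share of hosts with a promoter peak 27.3%. This setting selects on length itself. With introns 3 or later, the share of all peaks was 6.98%, the median length 1405 bp and the share within 10 kb 17.9%. With repeat and CpG island labels included, the share of all peaks was 30.3%, the median length 1089 bp, the share within 10 kb 18.0%, the last-intron share 11.8% and the share with another peak within 10 kb 49.2%. Merging peaks within 500 bp gave 3885 later-intron peaks and lowered the share with a neighbour within 10 kb to 50.1%, by removing close neighbours. The TSS share was 69.3% at 50 kb, the neighbour share 37.4% at 5 kb, and the share of hosts with a promoter peak 43.7% when any peak centred within 1 kb of the TSS counted. No paired analysis was possible because there is 1 library of each kind. Without read counts or replicates, neither depth nor reproducibility of single peaks can be judged, and the table holds no immunoprecipitation with a control antibody.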
